A study of Mus musculus with 12 samples.

Results

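The 10 genes described here encode receptors for dopamine and serotonin that atypical antipsychotic drugs bind, a drug class that includes risperidone. They are *Drd1*, *Drd2*, *Drd4* and *Drd5* for dopamine, and *Htr1a*, *Htr1b*, *Htr2a*, *Htr2c*, *Htr4* and *Htr7* for serotonin. They were chosen by mouse symbol, matched to Entrez gene identifiers, and all 10 were present among the 27179 identifiers of the count table. RNA-seq read counts were available from the hippocampus of 12 mice aged 3 months. Of these, 6 were *Nell-1+/6R* mice, which carry a chemically induced (ENU) loss-of-function allele of *Nell1* and a normal allele in every cell, and 6 were WT littermates. Each genotype comprised 3 females and 3 males. The labels give neither a strain nor a drug treatment. The titles of the WT mice also hold the word Het, whereas their genotype label reads WT. *Nell1* was lower in *Nell-1+/6R* mice, at 19.1 ± 1.77 CPM (read counts scaled to library size, SD, n = 6) against 36.5 ± 4.55 CPM in WT mice, and the groups did not overlap (log2 fold change -0.93, edgeR quasi-likelihood test, adjusted p = 0.00015). Such a lack of overlap between the genotypes was seen in 0.151% of the 17937 genes tested.

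Dopamine and serotonin reach the hippocampus through long axons whose cell bodies lie in the midbrain and brainstem, while the receptors are made by hippocampal cells and their inputs. All 10 receptors are coupled to G proteins. *Drd1*, *Drd5*, *Htr4* and *Htr7* encode receptors that stimulate adenylyl cyclase and raise cyclic AMP. *Drd2*, *Drd4*, *Htr1a* and *Htr1b* encode receptors that inhibit it, and *Htr2a* and *Htr2c* encode receptors that activate phospholipase C. Risperidone and related drugs block the D2 receptor and the 5-HT2A receptor in particular.

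Each library held between 10834905 and 16016317 counts assigned to genes, with a median of 12213485 in WT mice and 13507269 in *Nell-1+/6R* mice. Markers of hippocampal cells were abundant: 5 CA1 pyramidal neuron markers summed to 723–948 CPM, 4 CA3 markers to 115–172 CPM and 4 dentate granule neuron markers to 111–226 CPM over the 12 mice. Markers of monoamine neuron cell bodies were close to absent, with a sum of 0.742–1.89 CPM over 6 genes. *Fev*, a transcription factor of serotonin neurons, was counted 4 times in all WT mice together and 1 time in all *Nell-1+/6R* mice. Choroid plexus epithelium, the tissue of the ventricle wall that makes cerebrospinal fluid, was unevenly represented: its 10 markers summed to 45.0 CPM in the lowest mouse and 5199 CPM in the highest. Its score (the mean centred log2 CPM of the markers) was highest in *Nell-1+/6R* female replicate 1 (3.50), WT male replicate 3 (3.44), WT female replicate 1 (2.35) and WT female replicate 2 (1.31), and lay between -1.95 and -0.59 in the other 8 mice. In a bulk sample, fewer cells of a type and less RNA per cell cannot be told apart.

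The question of which of these 10 receptors the hippocampus transcribes most was addressed by dividing CPM by the exon length of each gene. Other dopamine and serotonin receptors were not part of this order. *Htr1a*, the receptor that inhibits pyramidal neurons in response to serotonin, was the highest of the 10 in all 12 mice, at 8.76 ± 1.00 CPM per kb (SD, n = 12). *Drd5*, the D1-like receptor with high affinity for dopamine, followed at 4.99 ± 0.871 CPM per kb and *Htr7* at 3.10 ± 0.486 CPM per kb. A middle tier held *Htr2c* (2.30 ± 0.925), *Htr4* (1.81 ± 0.475) and *Drd1* (1.39 ± 0.475 CPM per kb). *Drd2*, at 0.668 ± 0.165 CPM per kb, lay below them, and *Htr1b* (0.220 ± 0.0751), *Htr2a* (0.218 ± 0.154) and *Drd4* (0.0398 ± 0.0305 CPM per kb) were the least abundant. The receptors that the drugs are best known for, *Drd2* and *Htr2a*, thus ranked 7 and 9 of 10 by transcript level in this tissue.

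Neighbours in this order were compared within each mouse by an exact sign-flip permutation test (two-sided, adjusted over 9 pairs). *Htr1a* was above *Drd5*, *Drd5* above *Htr7*, *Drd2* above *Htr1b* and *Htr2a* above *Drd4* in 12 of 12 mice each, with mean log2 differences in level per kb of 0.82, 0.68, 1.58 and 2.19 (adjusted p = 0.0011, from the smallest p that 4096 sign flips allow, 0.000488). *Drd1* was above *Drd2* in 11 of 12 mice (1.03, permutation adjusted p = 0.00176). *Htr7* was above *Htr2c* in 9 of 12 mice (0.52, permutation adjusted p = 0.0207), and *Htr4* above *Drd1* in 9 of 12 (0.39, permutation adjusted p = 0.0207). For *Htr2c* and *Htr4* (0.29, 7 of 12 mice, permutation adjusted p = 0.152) and for *Htr1b* and *Htr2a* (0.21, 7 of 12 mice, permutation adjusted p = 0.3) the order was not resolved. The place of *Htr2c* depended on the length used: its union of exons is 9328 bases and its longest transcript 4883 bases, and with the latter it rose to 4.39 ± 1.77 CPM per kb, above *Htr7* by 0.31 on the log2 scale (permutation p = 0.121). Dividing by the longest transcript changed the rank of no receptor other than this pair. It made *Drd5* and *Htr2c* neighbours, and their order was not resolved (0.27, 8 of 12 mice, permutation adjusted p = 0.193). In the 6 WT mice alone the order of the 10 means per kb of exon was the same as in all 12.

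**Figure D1:**
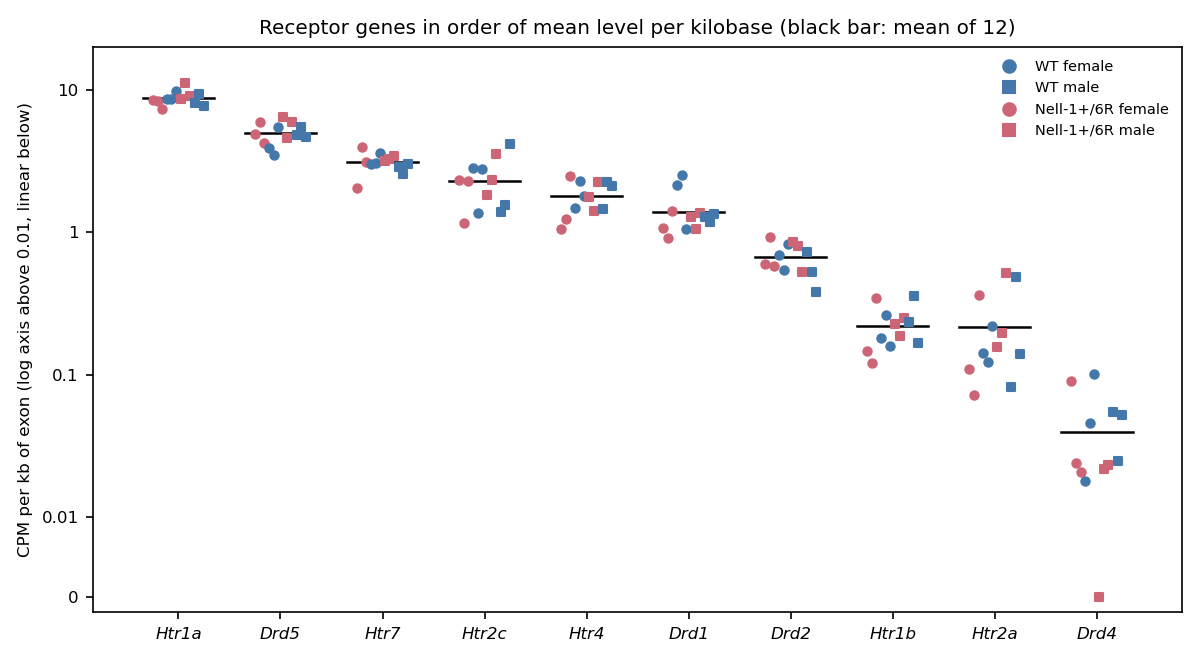
CPM per kb of exon (vertical axis, logarithmic above 0.01 and linear below) in each of 12 mice for the 10 receptor genes, ordered by mean. Points are mice coloured by genotype, with circles for females and squares for males, and black bars are means over 12 mice, from 8.76 for *Htr1a* to 0.0398 for *Drd4*, where 1 mouse had no count.

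Gene positions are given on GRCm38. *Drd1* (Entrez 13488) is at chr13:54051183-54055658 on the minus strand, and *Htr1a* (15550) is on the same chromosome at chr13:105443693-105448133, plus strand. *Drd2* (13489) at chr9:49340360-49408177, plus strand, shares its chromosome with *Htr1b* (15551) at chr9:81628291-81633832, minus strand. *Drd4* (13491) is at chr7:141291974-141296464, *Drd5* (13492) at chr5:38319509-38322523, *Htr2a* (15558) at chr14:74640874-74706859 and *Htr2c* (15560) at chrX:146962464-147197277, all on the plus strand. *Htr7* (15566) lies at chr19:35958415-36058133, minus strand. Antisense genes overlap *Drd5* (*Gm26560*, 1531 shared exon bases) and *Htr1b* (*D430036J16Rik*, 852 shared exon bases). The sources used here do not say whether the counting used strand, so part of the reads of *Drd5* and *Htr1b* could come from the opposite strand. *Htr2c* hosts small RNAs in its introns that share no exon base with it.

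To set the order of levels beside the sequence at the gene starts, the 250 bases before each RefSeq start (GRCm38.p6) were read for the 9 receptors that had an entry, which gave 10 windows because *Drd1* has 2 starts. Shown here are *Htr1a* and *Drd5*, the most abundant, and *Htr1b* and *Htr2a*, a pair of low receptors whose order was not resolved. Capitals mark matches of GGGCGG (the GC box) or of CCAAT on either strand, written as they read on the strand of the gene, and bases that GENCODE M21 places inside the transcript were cut from the 3′ end.
*Htr1a*, chr13:105443443-105443638, plus strand: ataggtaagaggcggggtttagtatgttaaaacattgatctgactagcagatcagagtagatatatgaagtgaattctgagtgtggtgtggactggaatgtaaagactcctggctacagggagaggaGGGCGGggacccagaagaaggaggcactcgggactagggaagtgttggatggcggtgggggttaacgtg
*Drd5*, chr5:38319259-38319366, plus strand: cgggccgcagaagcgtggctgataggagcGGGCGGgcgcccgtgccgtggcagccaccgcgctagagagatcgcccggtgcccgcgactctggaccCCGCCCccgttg
*Htr1b*, chr9:81633833-81634082, minus strand: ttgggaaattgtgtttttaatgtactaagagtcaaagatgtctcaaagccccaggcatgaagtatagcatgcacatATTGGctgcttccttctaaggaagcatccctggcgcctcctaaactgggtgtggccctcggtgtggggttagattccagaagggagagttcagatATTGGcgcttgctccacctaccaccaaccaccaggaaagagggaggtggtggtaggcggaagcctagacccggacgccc
*Htr2a*, chr14:74640624-74640839, plus strand: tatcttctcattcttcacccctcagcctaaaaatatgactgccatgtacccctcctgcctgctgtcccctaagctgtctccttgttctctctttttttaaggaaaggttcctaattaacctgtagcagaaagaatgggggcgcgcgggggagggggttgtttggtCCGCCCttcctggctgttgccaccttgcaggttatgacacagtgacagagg
The counts and ratios below use the full windows, with the bases inside transcripts. GENCODE M21 places inside 147 bases for *Htr7*, 142 for *Drd5*, 54 for *Htr1a*, 34 for *Htr2a*, 12 for *Drd4*, and 250 and 47 for *Drd1*. The *Htr7* window and 1 *Drd1* window lie within the gene spans given above. GGGCGG was found in 6 of the 10 receptor windows, 1 of them that *Drd1* window, and in 32.7% of the 32851 windows of all genes. CCAAT was found in 3 of 10 and in 33.8%. TATAAA was in 0 of 10 windows and in 12.4% of all, and TGACGTCA, a site for cyclic AMP-responsive factors, in 0 of 10 and in 1.55% of all. The searches covered both strands. No match of one motif overlapped a match of another in the receptor windows, and 2 of the 3 GGGCGG matches in the *Drd4* window share 1 base. The ratio of observed to expected CpG dinucleotides was 1.11 for *Drd5*, 0.981 for *Htr7*, 0.604 and 0.217 for the 2 windows of *Drd1*, 0.599 for *Drd4*, 0.509 for *Htr1a*, 0.507 for *Drd2*, 0.353 for *Htr1b*, 0.279 for *Htr2c* and 0.230 for *Htr2a*, beside a median of 0.373 over all windows. *Drd4*, the least abundant receptor, thus had a higher ratio than *Htr1a*, the most abundant.

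Against this background the effect of genotype was compared. None of the 10 receptor genes differed between *Nell-1+/6R* and WT mice at an adjusted p under 0.05 (quasi-likelihood test in edgeR, sex included as covariate), where 0.039% of the 17937 genes tested passed. At an unadjusted p under 0.05 the count was also 0 of 10, beside 3.26% of all genes, and 0 of 10 with a fold change above 1.5 in addition, the study's thresholds, beside 1.46%. DESeq2 and limma-voom gave 0 of 10 on all 3 counts. The genotypes overlapped in every receptor gene. Log2 fold changes were above 0 in 5 receptors and below 0 in 5, with a median of -0.03 beside a median over all genes tested of -0.00. The adjusted p was 1.00 for each.

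Among the receptors that raise cyclic AMP, *Drd1* gave the smallest p. In WT females it stood at 7.76, 9.19 and 3.82 CPM in replicates 1 to 3, and in WT males at 4.64, 4.31 and 4.92 CPM. *Nell-1+/6R* females had 3.91, 3.34 and 5.17 CPM and *Nell-1+/6R* males 4.67, 3.82 and 4.99 CPM. WT female replicates 1 and 2 were above every other mouse, and the remaining 10 mice lay between 3.34 and 5.17 CPM whatever their genotype. The log2 fold change was -0.40 (SE 0.213, 95% interval -0.86 to 0.06, unadjusted p = 0.083), and an exact permutation test over every split of the mice into 6 and 6 gave p = 0.18. *Drd5* went the other way without passing the test: WT females had 12.4, 11.04 and 17.2 CPM, WT males 15.3, 17.2 and 14.8 CPM, *Nell-1+/6R* females 15.4, 18.7 and 13.4 CPM and *Nell-1+/6R* males 20.2, 14.5 and 18.7 CPM. The 2 lowest mice were WT and the 3 highest *Nell-1+/6R*, and the other 7 were mixed (log2 fold change 0.20, SE 0.123, unadjusted p = 0.129). Without WT female replicate 3, the WT female that stood apart from the other 2 in both genes, unadjusted p-values fell to 0.0207 for *Drd1* (-0.51) and 0.0284 for *Drd5* (0.29), with adjusted p-values of 0.933 and 0.985. Without WT female replicate 2 the values moved the other way, to -0.25 for *Drd1* (unadjusted p = 0.229) and 0.14 for *Drd5* (unadjusted p = 0.272). Leaving out each mouse in turn gave -0.51 to -0.25 for *Drd1* and 0.14 to 0.29 for *Drd5*.

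*Htr7* ranged from 8.71 to 12.3 CPM in WT mice (median 10.3) and from 6.98 to 13.4 CPM in *Nell-1+/6R* mice, so that the latter held both the lowest and the highest mouse (log2 fold change 0.06, SE 0.138, unadjusted p = 0.674). *Htr4* ranged from 7.14 to 11.4 CPM in WT mice and from 5.21 to 12.2 CPM in *Nell-1+/6R* mice (-0.16, SE 0.207, unadjusted p = 0.464). Its 3 lowest mice and its highest mouse were *Nell-1+/6R*.

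Of the receptors that inhibit adenylyl cyclase, *Htr1a* was the most precisely measured of the 10, with WT mice at 39.0 ± 3.52 CPM and *Nell-1+/6R* mice at 39.6 ± 5.65 CPM (SD, n = 6). Its 95% interval for the fold change ran from 0.880 to 1.16 (log2 fold change 0.01, SE 0.0925, unadjusted p = 0.876). *Drd2* ranged from 0.967 to 2.12 CPM in WT mice and from 1.35 to 2.36 CPM in their *Nell-1+/6R* littermates, from 11 to 32 counts per mouse, and its interval was wider (log2 fold change 0.21, 95% interval -0.25 to 0.67, unadjusted p = 0.344). *Htr1b* had 82 counts in each genotype (log2 fold change -0.07, SE 0.285, unadjusted p = 0.803). *Drd4* had 13 counts in the WT and 8 in the *Nell-1+/6R* mice, with 0 to 5 per mouse, and a difference in it was not detectable at this depth (95% interval of the log2 fold change -2.04 to 0.70).

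The phospholipase C-coupled receptors varied widely between mice of 1 group. Over the 12 mice the coefficient of variation was 70.6% for *Htr2a* and 40.2% for *Htr2c*, beside 76.6% for *Drd4*, with its 0 to 5 counts per mouse, and 11.4% for *Htr1a*. *Htr2a* stood at 0.794, 0.695 and 1.23 CPM in WT females, 0.464, 2.71 and 0.791 CPM in WT males, 0.613, 0.407 and 2.05 CPM in *Nell-1+/6R* females and 0.879, 1.10 and 2.93 CPM in *Nell-1+/6R* males. A mouse above 2 CPM was present in 3 of the 4 groups, and the other 9 mice lay at or below 1.23 CPM. The highest mouse was 7.19-fold above the lowest, and the 95% interval for the genotype fold change ran from 0.585 to 2.38 (log2 fold change 0.24, SE 0.471, unadjusted p = 0.621). *Htr2c* stood at 26.3, 12.7 and 25.996 CPM in WT females, 12.9, 14.5 and 38.9 CPM in WT males, 21.9, 10.9 and 21.3 CPM in *Nell-1+/6R* females and 17.0, 21.8 and 33.3 CPM in *Nell-1+/6R* males. Its highest and lowest mice differed 3.57-fold and each genotype spanned nearly the whole range (log2 fold change -0.08, SE 0.293, unadjusted p = 0.798). By comparison the highest and lowest mice differed 1.51-fold for *Htr1a*, 1.83-fold for *Drd5*, 1.93-fold for *Htr7* and 2.75-fold for *Drd1*.

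**Figure D2:**
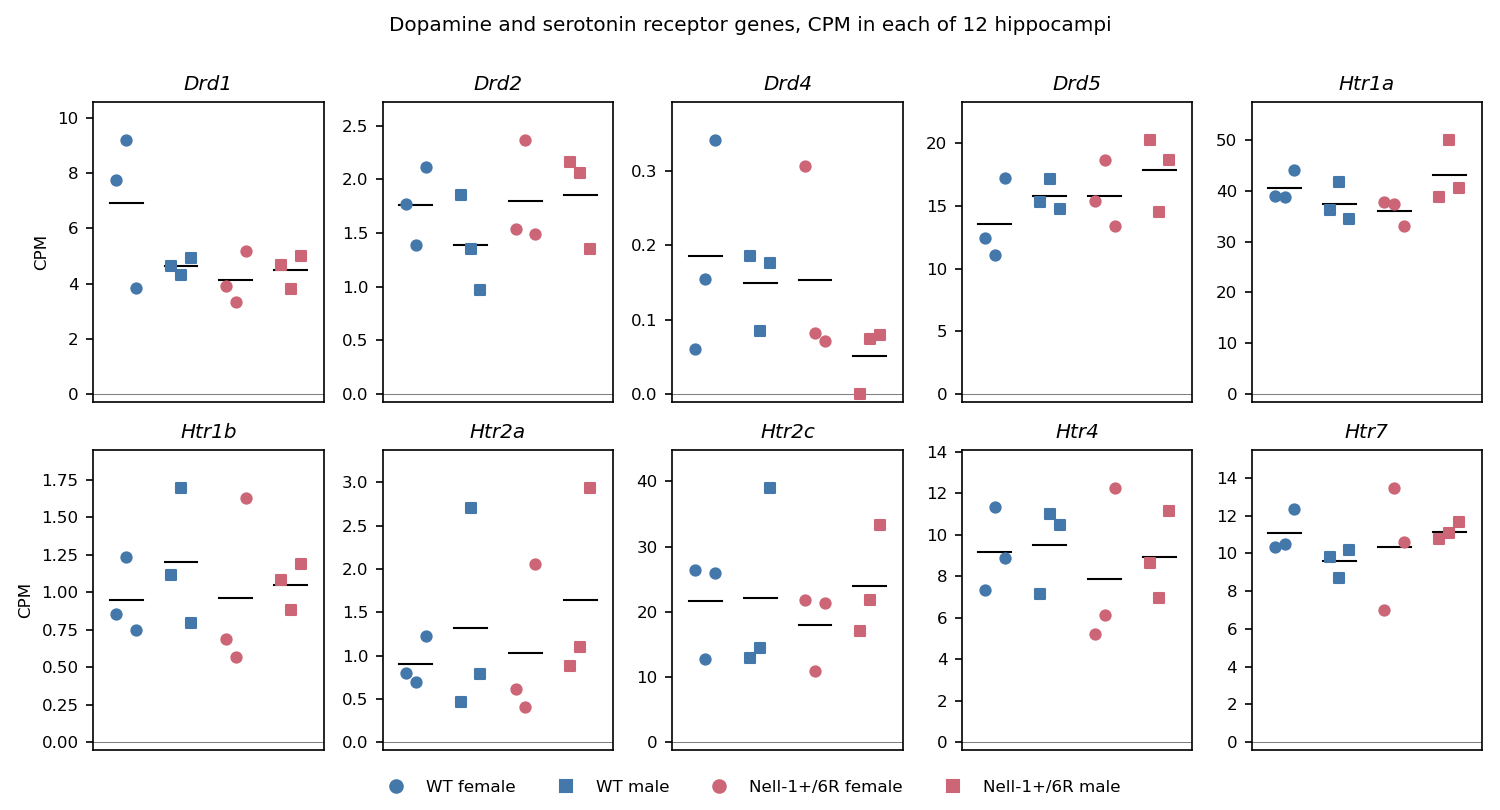
CPM (vertical axes, linear, with a scale per panel) of each receptor gene in the 12 mice, in the order WT female, WT male, *Nell-1+/6R* female and *Nell-1+/6R* male, with black bars for the means of 3 mice. The genotypes overlap in every panel, and for *Drd1* WT female replicates 1 and 2 (7.76 and 9.19 CPM) lie above the other 10 mice.

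Sex was balanced over genotype and was tested in the same fit, females against males. No receptor gene passed an adjusted p under 0.05 (0.0335% of all genes) or an unadjusted p under 0.05 (4.72% of all genes), and DESeq2 and limma-voom also gave 0 of 10. Log2 differences were between -0.59 for *Htr2a* (SE 0.472, unadjusted p = 0.231) and 0.76 for *Drd4* (SE 0.644, unadjusted p = 0.259). *Drd5* was at 14.7 ± 2.93 CPM in females and 16.8 ± 2.32 CPM in males (SD, n = 6 each), with the smallest p (-0.19, SE 0.123, edgeR unadjusted p = 0.137).

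Within each sex, where 3 mice met 3, the 4 groups were fitted together. No receptor passed an adjusted p under 0.05 in either sex (0.0167% of all genes in each), also with DESeq2 and limma-voom. In females, *Drd1* was the only receptor of 10 with an unadjusted p under 0.05 (2.84% of all genes), and it also passed the study's fold threshold (1.56% of all genes): the log2 fold change was -0.73 (SE 0.277, 95% interval -1.33 to -0.14, edgeR unadjusted p = 0.020, adjusted p = 0.998). The *Nell-1+/6R* females, at 3.34–5.17 CPM, and the WT females, at 3.82–9.19 CPM, overlapped. The call rested on few mice. Without WT female replicate 1 or 2, or *Nell-1+/6R* female replicate 1 or 2, the unadjusted p was 0.0514–0.113 and the log2 fold change -0.69 to -0.48. Without WT female replicate 3 the value was -1.03 (unadjusted p = 0.000345, adjusted p = 0.501). In males 0 of 10 receptors had an unadjusted p under 0.05, with or without the fold threshold (3.37% and 2.03% of all genes). There *Drd1* was at -0.04 (SE 0.284, unadjusted p = 0.884), and the genotype by sex interaction was -0.69 (SE 0.396, unadjusted p = 0.105), so a difference between the sexes was not shown. WT female replicates 1 and 2 were also among the 4 mice with the highest choroid plexus scores. WT female replicate 2 had the highest thalamus and habenula score (0.64) of the 12 mice. In it *Chrnb4* alone stood apart, with 72 counts in this mouse and 18 or fewer in every other. Each other marker of that list was higher in another mouse. Over both sexes 10 of 10 choroid plexus markers were below 0 for genotype and 0 passed an unadjusted p under 0.05 (3.26% of all genes). Of the thalamus and habenula markers, 7 of 7 tested were below 0 and 2 passed (difference in score -0.36, exact permutation p = 0.0433). The r of *Drd1* with the latter score was 0.63 (rho 0.57, permutation p = 0.0696 and 0.11), and 0.43 without the 2 mice with the most distant scores. With the leptomeningeal fibroblast score, also lower in *Nell-1+/6R* mice, it was 0.61 (rho 0.49, permutation p = 0.0815 and 0.176, r = 0.61 without 2 mice), and with the choroid plexus score 0.37 (rho 0.38, permutation p = 0.324 and 0.294, r = 0.74 without 2 mice). With each mouse left out in turn, r was 0.41 to 0.74, 0.33 to 0.75 and -0.06 to 0.59 for these 3 scores. Each of these 3 relations had an adjusted p of at least 0.55. Leaving out the 4 mice with the highest choroid plexus scores gave a *Drd1* log2 fold change over both sexes of 0.06 (unadjusted p = 0.748), but this removes the 2 mice with high *Drd1* and with them the difference. The part of neighbouring tissue in the *Drd1* values was not tested.

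*Htr1a* had the only interaction with an unadjusted p under 0.05 among the 10 (3.09% of all genes), and it did not pass the fold threshold (2.16% of all genes). Females had 38.9, 38.7 and 44.0 CPM in WT and 37.8, 37.3 and 33.1 CPM in *Nell-1+/6R* mice, and the groups did not overlap, as in 6.0% of all genes tested in females. Males had 36.3, 41.8 and 34.4 CPM in WT and 38.8, 49.9 and 40.5 CPM in *Nell-1+/6R* mice, with overlap, where 10.4% of all genes tested in males had none. The log2 fold change was -0.17 in females (SE 0.115, unadjusted p = 0.165) and 0.20 in males (SE 0.115, unadjusted p = 0.107), and the interaction was -0.37 (SE 0.163, 95% interval -0.72 to -0.02, unadjusted p = 0.0412, adjusted p = 0.987). It had an unadjusted p of 0.0854–0.123 without *Nell-1+/6R* female replicate 3, WT female replicate 3, *Nell-1+/6R* male replicate 2, WT male replicate 1 or WT male replicate 3. No gene of the whole table passed an adjusted p under 0.05 for the interaction (0.0% of all genes) with edgeR or limma-voom, and 3 did with DESeq2.

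**Figure D3:**
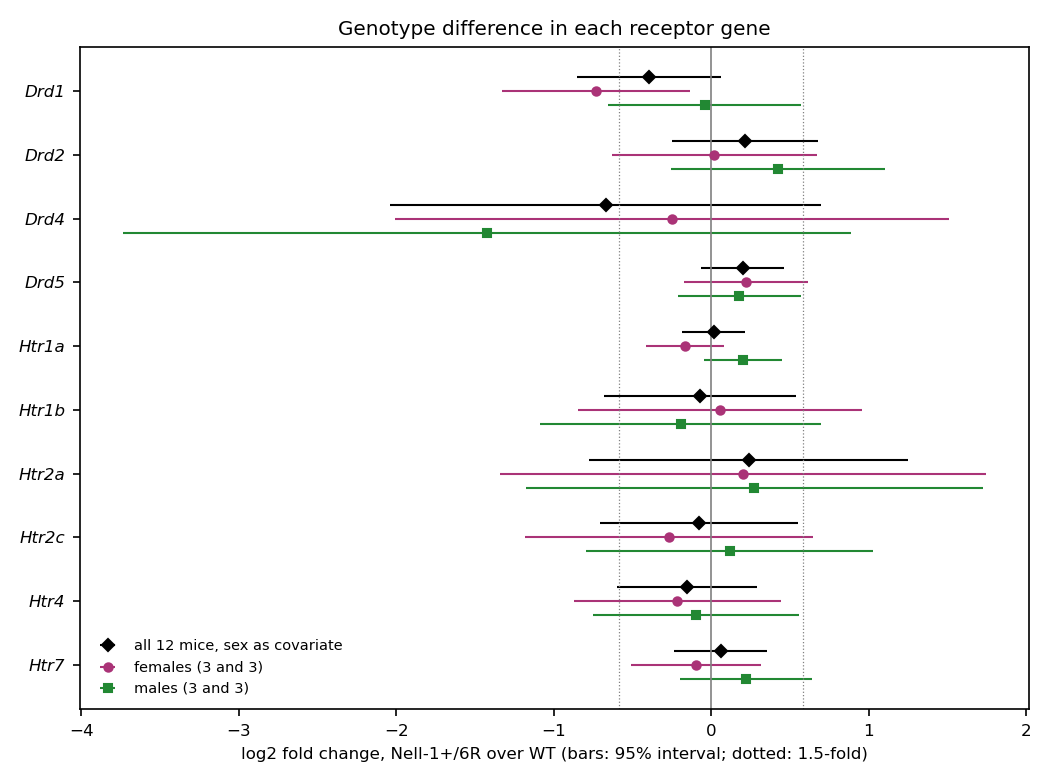
Log2 fold change of *Nell-1+/6R* over WT (horizontal axis) for each receptor gene in all 12 mice (black diamonds), females (purple circles) and males (green squares), with 95% intervals from the edgeR fit and dotted lines at 1.5-fold. Each interval includes 0 except that of *Drd1* in females, -1.33 to -0.14.

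Several receptors are strongly made by tissue that borders the hippocampus, so each was set against the marker scores of 10 tissues or cell types after the group means were removed. *Htr2c* is a known product of choroid plexus epithelium. Over the 12 mice its Pearson r with the choroid plexus score was 0.43 (Spearman rho 0.31, permutation p = 0.242 and 0.401), and leaving out 2 mice, those whose score was farthest from the median, gave r = -0.27. WT male replicate 3, with a choroid plexus score of 3.44, had the highest *Htr2c*, 38.9 CPM. *Nell-1+/6R* male replicate 3, with the lowest score, -1.95, had the next highest, 33.3 CPM, and WT female replicate 2, with a score of 1.31, had 12.7 CPM. *Drd1* and *Drd2*, the dopamine receptors of the striatum, had r of 0.59 and -0.56 with the striatum score. Those marker genes summed to 99.7–134 CPM over the mice, and 0 of 9 differed by genotype at an unadjusted p under 0.05 (3.26% of all genes).

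**Figure D4:**
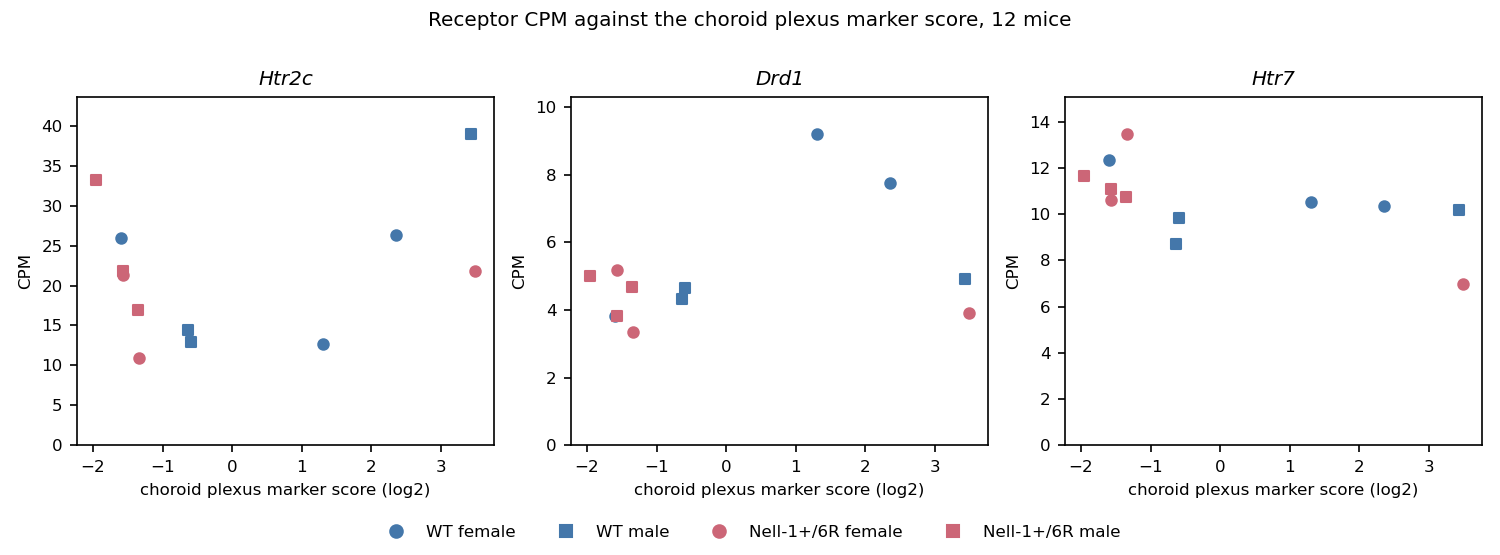
CPM of *Htr2c*, *Drd1* and *Htr7* (vertical axes, linear) against the choroid plexus marker score (horizontal axes, log2 scale) in 12 mice, coloured by genotype with circles for females and squares for males. High *Htr2c* occurs at both ends of the score, 38.9 CPM at 3.44 and 33.3 CPM at -1.95.

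Of the 100 correlations, 0 had an adjusted p under 0.05 and 9 an unadjusted p under 0.05. The smallest p was for *Drd2* and the thalamus and habenula score (r = -0.84, rho = -0.83, permutation p = 0.00573 and 0.00691, adjusted p = 0.336 and 0.62), and r = -0.77 after leaving out 2 mice in the same way. *Htr1b* and *Htr2a* were high in mice with a high striatum score (r = 0.80, rho = 0.76 and r = 0.76, rho = 0.71, permutation p = 0.00931, 0.0186, 0.0189 and 0.035, adjusted p of r 0.336 and 0.378), with r of 0.63 and 0.55 without 2 mice. *Htr2c* ran against the CA1 pyramidal neuron score (r = -0.80, rho = -0.59, permutation p = 0.0101 and 0.0857, adjusted p = 0.336 and 0.641, r = -0.61 without 2 mice). *Htr4* ran with the dentate granule neuron score (r = 0.70, rho = 0.71, permutation p = 0.0365 and 0.0295, adjusted p = 0.47 and 0.641, r = 0.71 without 2 mice). *Drd5* and *Htr7* ran against the CA3 pyramidal neuron score (r = -0.74, rho = -0.69 and r = -0.68, rho = -0.62, permutation p = 0.0229, 0.0436, 0.0376 and 0.0707, adjusted p of r 0.381 and 0.47), with r of -0.75 and -0.77 without 2 mice. *Htr2a* ran with the monoamine neuron score (r = 0.68, rho = 0.62, permutation p = 0.0439 and 0.0761, adjusted p = 0.487 and 0.641, r = 0.47 without 2 mice). Of the 6 markers on that list only *Tph2* and *Slc6a3* passed the filter and entered the score, with 2 to 17 counts per mouse. None of these relations passed the correction for the number of relations.

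**Figure D5:**
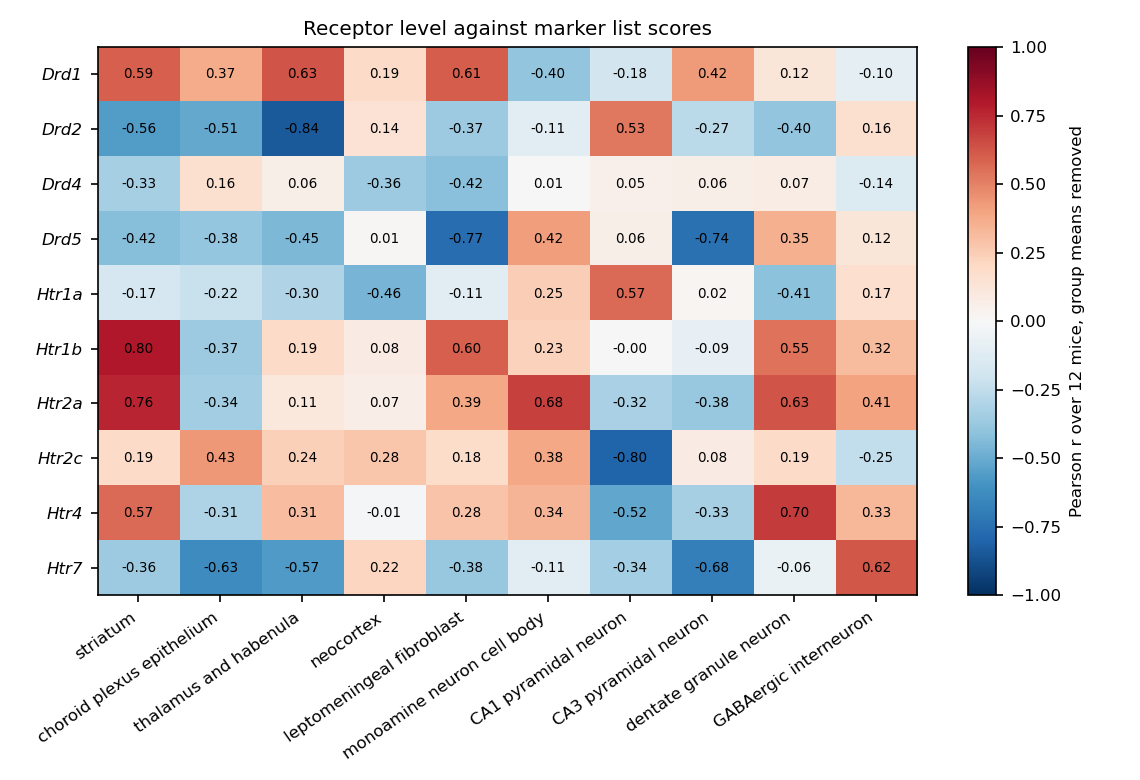
Pearson r over 12 mice, with the means of the 4 groups removed, between each receptor gene (rows) and the score of each marker list (columns), from -1 (blue) to 1 (red). Of the 100 values, 0 had an adjusted p under 0.05, and the strongest were -0.84 for *Drd2* with thalamus and habenula and 0.80 for *Htr1b* with striatum.

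Leptomeningeal fibroblasts had the most markers that differed by genotype among these lists. Of these, 9 of 9 were below 0 and 7 of 9 lower in *Nell-1+/6R* mice at an unadjusted p under 0.05 (3.26% of all genes, in either direction). Their summed levels were 114–378 CPM (WT) and 67.0–364 CPM (*Nell-1+/6R*) (difference in score -1.01, exact permutation p = 0.0195). The choroid plexus score differed by more, -1.43, with a wider spread (exact permutation p = 0.262). *Drd5*, higher by 0.20 in *Nell-1+/6R* mice without passing the test, fell with the leptomeningeal fibroblast score over the mice (r = -0.77, rho = -0.77, permutation p = 0.0159 and 0.0163, adjusted p = 0.378 and 0.62, r = -0.78 without 2 mice). Without the 4 mice with the highest choroid plexus scores, the genotype difference of *Drd5* was 0.05 (unadjusted p = 0.771). This removes WT female replicates 1 and 2, the lowest mice for *Drd5* (12.4 and 11.04 CPM), and with them part of the difference. The part of these tissues in the *Drd5* values was not tested.

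The receptors were also compared with each other, a family of 45 pairs chosen after the data were seen. Here 0 pairs had an adjusted p under 0.05 and 5 an unadjusted p under 0.05, each with an adjusted p of 0.39 for r. Among these pairs, r was 0.74 for *Htr1b* and *Htr4* (rho 0.64, permutation p = 0.0216 and 0.0604), 0.72 for *Htr2a* and *Htr4* (rho 0.69, permutation p = 0.03 and 0.0399) and 0.68 for *Htr1b* and *Htr2a* (rho 0.58, permutation p = 0.0416 and 0.0868). After leaving out the 2 mice farthest from the median of the first gene of each pair, r was 0.29, 0.72 and -0.09. Both relations of *Htr1b* were thus weaker without its most distant mice. With each mouse left out in turn, r was 0.43 to 0.91, 0.55 to 0.82 and 0.48 to 0.78. *Nell-1+/6R* female replicate 3 held 1.63 CPM of *Htr1b*, 2.05 CPM of *Htr2a* and 12.2 CPM of *Htr4*, and WT male replicate 2 held 1.69, 2.71 and 10.995 CPM. *Drd1* ran against *Drd5* (r = -0.69, rho = -0.59, permutation p = 0.0387 and 0.0935, -0.29 without 2 mice) and against *Htr1a* (r = -0.68, rho = -0.73, permutation p = 0.0434 and 0.0236, -0.78 without 2 mice).

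Over the same 12 mice the 3 genes most like each receptor were sought among 14386 genes with a mean of at least 1 CPM, again with group means removed, for the 9 receptors that reach that level. For *Htr2c* they were *Efhc2*, *Cul4b* and *Nckap5* (r = 0.98, 0.94 and 0.92). For *Htr2a* they were *Tmf1*, *Cask* and *Cep350* (0.98, 0.98 and 0.97), and for *Htr1b* *Pcnt*, *Chsy3* and *Syn3* (0.99, 0.97 and 0.94). *Htr4* ran closest with *Nrd1*, *Znrf3* and *Mob1a* (0.98 each), and *Htr7* with *Tm6sf1*, *Dlx5* and *Atp6v1b2* (0.98, 0.95 and 0.95). For *Htr1a* they were *Hikeshi*, *Tmem35b* and *Med8* (0.89, 0.89 and 0.88). Among dopamine receptors, *Drd1* was closest to *Pik3ap1*, *Parp16* and *Cenpw* (0.92, 0.90 and 0.89), *Drd2* to *Sdccag8*, *Ncbp2* and *Chka* (0.98, 0.93 and 0.93) and *Drd5* to *Sec16b*, *Slc26a4* and *Evc2* (0.95, 0.91 and 0.89). No receptor was named among the genes most like another. These values are the highest of many and carry no test.

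The remaining genes of the pathway were examined as lists. Over all genes tested, 3.26% had an unadjusted p under 0.05 for genotype and 4.72% for sex. Of 9 other dopamine and serotonin receptors, 7 had enough counts to be tested, 4 above 0 and 3 below (median log2 fold change 0.06). *Htr3a*, the subunit of the serotonin-gated ion channel of interneurons, was the only one of them with an unadjusted p under 0.05 for genotype. Its WT mice had 9.90, 8.19, 8.80, 10.5, 8.54 and 10.9 CPM and its *Nell-1+/6R* mice 7.67, 12.2, 11.8, 11.97, 11.7 and 12.9 CPM, so that 5 of 6 *Nell-1+/6R* mice were above all WT mice (log2 fold change 0.26, SE 0.118, unadjusted p = 0.0431, adjusted p = 1.00). Over the alternatives its unadjusted p was between 0.00259 and 0.106. GABAergic interneuron markers had 8 of 9 above 0 and 2 of 9 higher at an unadjusted p under 0.05 in *Nell-1+/6R* mice (3.26% of all genes, in either direction). Their sums were 572–649 CPM in WT and 594–703 CPM in mutant mice, and their part in the *Htr3a* values was not tested. *Htr3a* was also the most abundant of the list (5.01 CPM per kb over the 12 mice), and *Drd3* the least, with 2 counts in all WT mice together and 0 in the others. For sex, *Htr1d* was lower in females (-1.70, unadjusted p = 0.0306), on 5 counts in females and 16 in males.

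Of 13 genes that make, carry or break down monoamines, 11 were tested. For genotype, 10 of 11 were below 0 (median log2 fold change -0.10) and 1 passed an unadjusted p under 0.05 (3.26% of all genes). This was *Tph1*, the tryptophan hydroxylase of the pineal gland and gut (-1.73, SE 0.761, unadjusted p = 0.039, adjusted p = 1.00), of whose 102 WT counts 76 came from WT female replicate 2. The other 11 mice had 2 to 8 counts, and without that replicate the value was -0.27 (unadjusted p = 0.540). *Tph2*, the neuronal form, stood at 0.792 ± 0.183 CPM (SD, n = 6) in WT and at 0.722 ± 0.182 CPM (n = 6) in *Nell-1+/6R* mice. *Slc6a2*, the noradrenaline transporter, was the least abundant, its counts summing to 4 in WT and to 1 in mutant mice. For sex, *Tph1* was higher in females (1.75, unadjusted p = 0.0392), again with those counts, and *Slc18a2*, the vesicular monoamine transporter, lower (-0.40, unadjusted p = 0.0366). The adjusted p for sex was 0.868 for each of *Tph1*, *Slc18a2* and *Htr1d*.

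Of 12 adrenergic, histamine and muscarinic receptors that the same drugs bind, all were tested and 0 passed an unadjusted p under 0.05 for genotype (6 above and 6 below 0, median 0.01). *Chrm1*, a muscarinic receptor of pyramidal neurons, was the most abundant (52.7 CPM per kb in WT and 53.8 CPM per kb in mutant mice). *Chrm2*, another muscarinic receptor, was the least (0.0431 and 0.0605 CPM per kb). For sex, *Chrm4* was lower in females (28.3–35.7 CPM) than in males (29.9–39.7 CPM), with a log2 difference of -0.22 (unadjusted p = 0.0164, adjusted p = 0.868). Downstream, 33 of 33 G proteins, adenylyl cyclases, phospholipases, kinases and regulators were tested and 0 passed an unadjusted p under 0.05 for genotype or for sex. For genotype 22 were above 0 and 11 below (median log2 fold change 0.01), and *Adcy1*, the calcium-stimulated adenylyl cyclase, had the highest mean over the 12 mice per kb of exon (142 CPM per kb in WT and 128 CPM per kb in mutant mice, log2 fold change -0.15, unadjusted p = 0.230). *Gnas*, the stimulatory G protein alpha subunit, lay close to it, at 129 CPM per kb in WT and 137 CPM per kb in mutant mice, the latter above *Adcy1*. Divided by the longest transcript, *Gnas* was the higher of the pair (376 against 138 CPM per kb over the 12 mice). *Plcb4*, a phospholipase C, was the least abundant per kb of exon, at 0.859 and 0.826 CPM per kb, while *Grk5*, a G protein-coupled receptor kinase, was lower with the longest transcript (1.04 against 1.45 CPM per kb).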

How the data were processed

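Hippocampal total RNA of 12 mice was sequenced as single 50-base reads. Per the labels and the study's methods, the authors aligned reads to mm10 with HISAT2 2.1.0 and deposited raw counts per Entrez gene from featureCounts (2.0.1 in the submitters' processing notes). The sources used here give neither the strand setting nor the treatment of multi-mapping reads. Of 27179 identifiers, 25275 matched a symbol. Genes with at least 0.2 CPM in at least 2 mice (17937) were tested with edgeR 4.0.16 (TMM, quasi-likelihood, sex as covariate), with Benjamini-Hochberg adjustment over all of them. A model of 4 groups gave effects per sex and the interaction. DESeq2 1.42.0 and limma-voom 3.58.1 were alternatives. The steps were tested on simulated data. Levels per kb used GENCODE M21 exon unions, with 0.01 added before logs. Marker scores were means of centred log2 CPM (prior count 2) over the markers of a list that passed the filter. Correlations used 100000 permutations. Replicates are separate mice. Promoters and coordinates came from RefSeq GRCm38. Members and lists were chosen with earlier results of these data known. Genes named from the lists had an unadjusted p under 0.05 for genotype or sex or were the most or least abundant per kb. In addition, *Tph2*, *Gnas*, *Grk5*, *Chrnb4* and *Slc6a3* were named after their values were seen. One gene that this rule names is not reported here.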

Additional observations from a re-analysis of the deposited data

Results flagged for a closer look

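*Drd4* in *Nell-1+/6R* female replicate 1 stood at 0.307 CPM, on 4 counts, apart from the other 5 *Nell-1+/6R* mice, which had 0 or 1 count each. *Htr2a* in WT male replicate 2 stood at 2.71 CPM, far from the other 5 WT mice at 0.464–1.23 CPM. The same mouse had the highest *Htr1b* of the 12, 1.69 CPM. Each receptor was examined for a mouse far from its group in both genotypes, 20 groups in all, and chance flags about 1 group in 20.

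The genotype effect on *Htr1a* differed between the sexes by -0.37 on the log2 scale (edgeR interaction, unadjusted p = 0.0412, adjusted p = 0.987), downward in females and upward in males. It did not pass the adjustment over all genes.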

How the results depend on the processing

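Under 10 alternatives of scaling, test, covariate, filter or block, the genotype log2 fold changes of the 10 receptors kept their direction, and none had an adjusted p under 0.05. *Drd4* was not fitted under the 2 stricter filters and *Htr2a* not under a minimum of 1 CPM in 6 mice. *Drd4* was also not fitted without 2 of the mice. No receptor passed an adjusted p under 0.05 without any single mouse.

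The count of receptors with an unadjusted p under 0.05 for genotype ranged from 0 to 2 when each mouse was left out, with *Drd1* and *Drd5* passing without WT female replicate 3 (4.46% of all genes in that fit), and for sex from 0 to 1 (*Drd5*, without the same mouse, 7.64% of all genes). In females it ranged from 0 to 2 (adding *Htr4* without *Nell-1+/6R* female replicate 3, where 12.8% of all genes passed, and *Drd5* without WT female replicate 3, where 3.47% did), with the fold threshold from 0 to 2 (3.42% of all genes where it was 2), in males from 0 to 1 (*Htr1a* without WT male replicate 2, 3.22% of all genes) and for the interaction from 0 to 2 (adding *Htr7* without *Nell-1+/6R* female replicate 2, 3.42% of all genes), with the fold threshold from 0 to 1 (*Drd1* without WT female replicate 3, 1.88% of all genes). Leaving out mice turned the direction of several genotype effects, not only of small ones: *Htr1a* -0.052 to 0.063, *Htr1b* -0.34 to 0.091, *Htr2a* -0.11 to 0.67, *Htr2c* -0.23 to 0.19, *Htr7* -0.023 to 0.17, *Htr1d* -0.82 to 0.098 and *Slc18a2* -0.15 to 0.059. For sex it turned *Htr2c* (-0.36 to 0.046) and *Htr7* (-0.034 to 0.16). Without the 4 mice with the highest choroid plexus scores, chosen after seeing the data, genotype values were 0.062 for *Drd1*, -0.032 for *Htr1a*, 0.22 for *Htr2c*, 0.0026 for *Htr4*, 0.21 for *Tph1* and 0.041 for *Slc18a2*, and sex values -0.13 for *Drd1*, 0.0013 for *Htr2c* and 0.019 for *Htr4*. In the same 8 mice the genotype value of *Drd5* was 0.045, and those of *Drd2* and *Htr2a* also lay nearer 0. The mice left out include WT female replicates 1 and 2, which were the lowest for *Drd5* and the highest for *Drd1*. In females limma-voom gave -0.0047 for *Drd2*, -0.039 for *Htr1b* and -0.069 for *Htr2a*. With longest transcripts *Htr7* over *Htr2c* was -0.31. The cause of these changes was not tested.

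Mice with the same replicate number did not deviate together: the correlation of their deviations was 0.17, -0.01 and 0.24 in females and 0.08, -0.20 and -0.04 in males, so the numbers give no pairing. With the replicate number as a block, 0 receptors had an unadjusted p under 0.05 and *Drd1* was at -0.37 (unadjusted p = 0.140), and over all genes the count with an unadjusted p under 0.05 went from 584 to 510. Depth limits *Drd4*, *Htr1b*, *Drd2* and *Htr2a* above all, with at most 5, 23, 32 and 37 counts per mouse.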
